A study of Mus musculus with 6 samples.

Results

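The 35 genes described here cover the route of a fatty acid from the capillary to the mitochondrial matrix and the lipid droplet. They were chosen by symbol from a list ordered as uptake, activation, transport, beta-oxidation spiral, electron transfer, peroxisome and droplet, and all 35 had a row among the 54093 genes of the deposited table. RNA came from myocardium of the right atrium (RA) at postnatal day 21 (P21), in 3 sham and 3 volume overload (VO) libraries, named here sham 1 to sham 3 and VO 1 to VO 3. All mice were WT C57BL/6 and, per the study's methods, of either sex. VO was made at P7 by an aortocaval fistula (ACF), a needle puncture that joins the abdominal aorta to the inferior vena cava and raises the return of blood to the heart as a whole, and sham mice had sham surgery at the same age. The labels do not say whether each library came from a separate mouse, so the p-values measure only the spread between these libraries.

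Fatty acids are the main fuel of heart muscle after birth. They are freed from lipoproteins, cross the cell membrane with the help of transporters, are joined to coenzyme A (CoA) and enter the mitochondrion as carnitine esters. In the matrix a repeating cycle of dehydrogenase, hydratase and thiolase reactions, the beta-oxidation spiral, shortens the chain and yields acetyl-CoA, while the electrons pass through a flavoprotein to ubiquinone. Fatty acids that are not burned are stored in lipid droplets, from which lipases release them again.

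Expression was read as the deposited FPKM, fragments divided by the annotated length of the gene and by a factor per library. That factor was not proportional to the fragment total, at 15.56 for 16494342 fragments in sham 1 and 18.14 for 16852482 in VO 1. The length counts all annotated exon bases, 8286 in Echs1 and 823 in Fabp3, and some sequence is shared with other genes. Levels of different genes are therefore compared only roughly. In the sham RA the highest of the 35 genes was Fabp3, the heart fatty acid binding protein, at 796 ± 167 FPKM (SD, n = 3 libraries). It was followed by the thiolase gene Acaa2 at 344 ± 41.0, the long-chain acyl-CoA dehydrogenase gene Acadl at 292 ± 17.6 and the fatty acid transporter gene Cd36 at 208 ± 15.5 FPKM (SD). Among these neighbours, the sham ranges of Acaa2 (307 to 388 FPKM) and Acadl (272 to 306 FPKM) all but touched. At the other end were the cytosolic thioesterase gene Acot1 at 2.36 ± 0.384 and the peroxisomal gene Ehhadh at 1.90 ± 0.295 FPKM (SD), whose values overlapped. Of the 35 genes, 22 lay above the 90th percentile of the 12627 tested genes in sham and 33 lay above the 50th. The muscle isoform of the carnitine acyltransferase at the outer membrane, Cpt1b, which is not among the 35 genes, was read at 0.162 to 0.515 FPKM, under the filter of a mean of 1 FPKM. In its annotation 2744 of 3372 exon bases (81.4%) are shared on the same strand with the readthrough gene Gm44502, which was listed at 0 FPKM, and how fragments on shared bases were counted is not given in the sources used here.

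**Figure D1:**
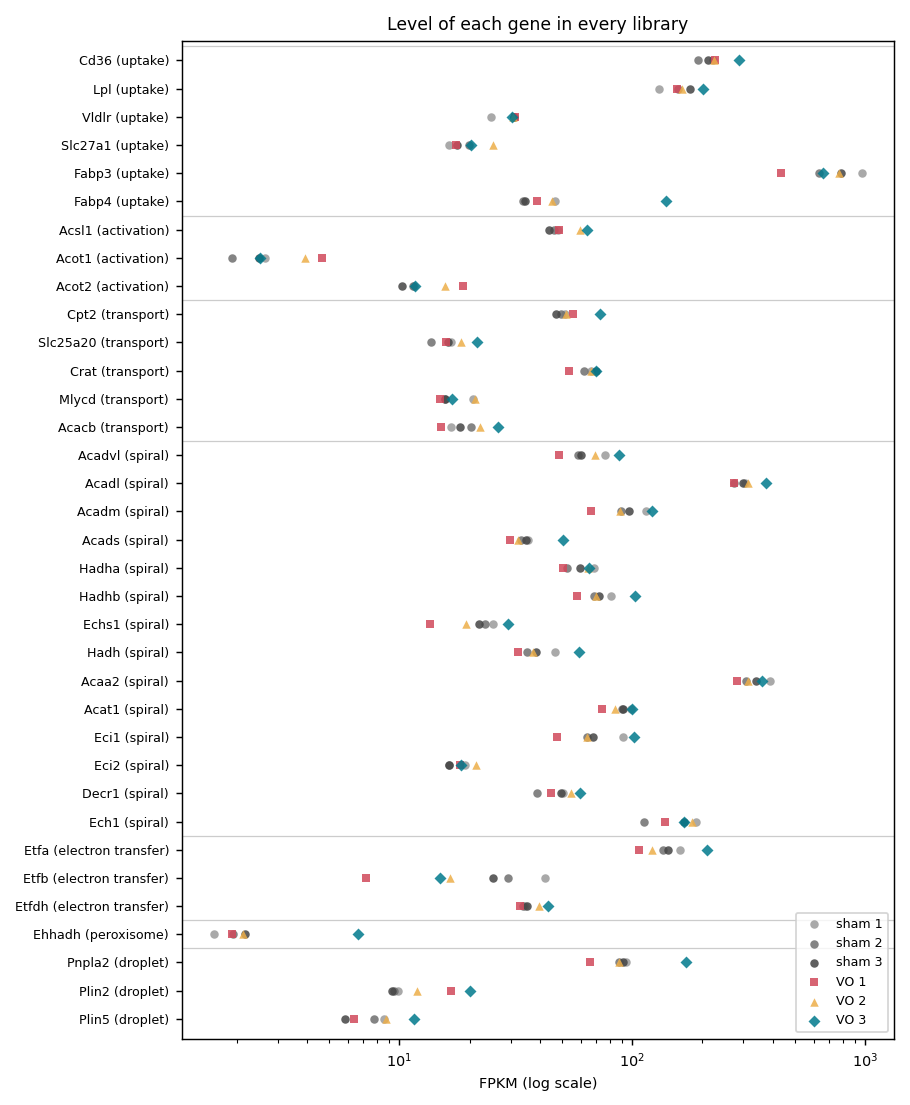
FPKM of the 35 genes on a log axis, 1 point per library and 1 line per gene, with the genes grouped by step. Grey points are the 3 sham libraries. Fabp3 reaches 968 FPKM in sham 1, while Acot1 and Ehhadh lie under 7 FPKM in every library. The VO 3 diamond is the rightmost point in 24 of the 35 genes.

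The tissue itself was read from cell type markers. The right atrial genes Bmp10 and Nppa were high in every library, at 981 to 1702 and 1026 to 5513 FPKM, and the atrial light chain gene Myl7 was 2586 to 8501 FPKM. Of 3 ventricular genes, the regulator Irx4 stayed at or below 0.259 FPKM, while Myl2 was 60.4, 2.02 and 56 FPKM in sham and 6.95, 1.54 and 20.6 in VO, and the list summed to 119 to 306 in sham and 90.8 to 142 in VO. Cardiomyocyte markers were lower in VO for 8 of 8 genes, of which 6 did not overlap between groups (background 12.9%), though Ryr2 was above 0 with TPM (0.013) and quantile normalization (0.021), and their summed level was 17321 to 21003 FPKM in sham and 8435 to 14373 in VO. In bulk tissue fewer cells of a type and less RNA per cell cannot be told apart. Of the libraries, VO 3 stood apart by adipocyte markers. Ucp1, which defines brown adipocytes, was 254 FPKM in VO 3 and listed at 0 in the other 5 libraries. All 5 genes listed as white adipocyte markers were highest in VO 3. They summed there to 357 FPKM against 0.315 to 1.78 in sham and 0 in VO 1 and VO 2. This list was not used to tell white from brown fat. The brown adipocyte list summed to 690 FPKM in VO 3 and to 189 to 465 in the other libraries. Most of each sum was Cox8b, which was highest in sham 1 at 457 FPKM, against 370 in VO 3. Of the other genes of that list, Cidea was 65.7 FPKM in VO 3 and Elovl3 was 0.814 there. VO 1 stood apart by the sum of the macrophage markers, 230 FPKM there and 80.6 to 116 in the others. In VO 1 Csf1r was 61.2, Adgre1 62.1 and Cd68 17.8 FPKM, against at most 25, 14.6 and 10.6 elsewhere. The other markers of the list set VO 1 apart less or not at all. C1qa was 81.9 FPKM there beside 74.2 in sham 1, and Cd163, at 6.52, lay inside the sham range. Values without VO 3 and without VO 1 are therefore given beside the results below, and the part of adipocytes or macrophages in any of them was not tested. Endothelial markers summed to 202 to 213 FPKM in sham and 213 to 222 in VO.

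Across the 35 genes, all of which passed the filter of a mean of at least 1 FPKM, 0 passed limma's test at an adjusted p under 0.05, against a background of 0.00792% of all tested genes. Adjusted p-values of the 35 genes ran from 0.356 to 0.991 (limma, Benjamini-Hochberg over all 12627 genes). With voom on the recovered fragments 0 passed as well, and at an unadjusted p under 0.05 it gave 4 higher genes (background 5.28%) and 1 lower (background 7.25%). At an unadjusted p under 0.05, limma gave 1 gene lower in VO, Etfb, where the background was 8.08%, and 3 genes higher in VO, Acot1, Acot2 and Plin2, where the background was 3.89%. The groups did not overlap in 1 gene that was lower in VO, again Etfb (background 12.9%), and in 5 genes that were higher, Cd36, Acsl1, Acot2, Cpt2 and Plin2 (background 8.25%). As shares, 2.86% of the 35 genes were lower and 8.57% higher at an unadjusted p under 0.05. In all, 25 of the 35 genes had a log2 fold change above 0 and 10 below, with a median of 0.12 against -0.01 over all tested genes. Scaling moved that balance. With TPM the split was 31 higher and 4 lower with a median of 0.26, while the median of all genes was 0.13. With quantile normalization it was 32 higher and 3 lower with a median of 0.26 against 0.0019 over all genes. At an unadjusted p under 0.05 limma gave 10 higher genes (background 8.59%) and 1 lower (background 3.85%) with TPM, and 9 higher (background 4.05%) and 1 lower (background 6.6%) with quantile normalization.

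The VO libraries differed among themselves. On the log2 scale, the mean distance of the 35 genes from the sham mean was -0.18 in VO 1, 0.09 in VO 2 and 0.39 in VO 3, while the sham libraries lay at 0.11, -0.086 and -0.02. The mean over the VO libraries, 0.10, was smaller than their SD of 0.28. VO 3 was the highest of the 6 libraries in 24 of the 35 genes (background 14.2%), and VO 1 was the lowest in 18 (background 32.6%). The median log2 fold change was 0.035 without VO 3, with 19 genes higher and 16 lower, and 0.24 without VO 1, with 31 higher and 4 lower. Without VO 3, limma's unadjusted p was under 0.05 in 3 lower genes, Echs1, Etfa and Etfb (background 7.55%), and in 3 higher genes (background 3.94%), the same Acot1, Acot2 and Plin2. The groups then did not overlap in 8 lower genes (background 19.9%), Acadm, Acads, Acat1, Echs1, Eci1, Etfa, Etfb and Pnpla2, and in 6 higher genes (background 14.8%). Without VO 1, the count was 1 lower gene, Etfb (background 4.91%), and 5 higher genes, Acacb, Acsl1, Etfdh, Plin2 and Slc25a20 (background 2.51%), and the groups did not overlap in 1 lower gene (background 15.2%) and 12 higher genes (background 11.4%). Etfb and Plin2 were the genes counted at an unadjusted p under 0.05 in all 3 of these fits.

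**Figure D2:**
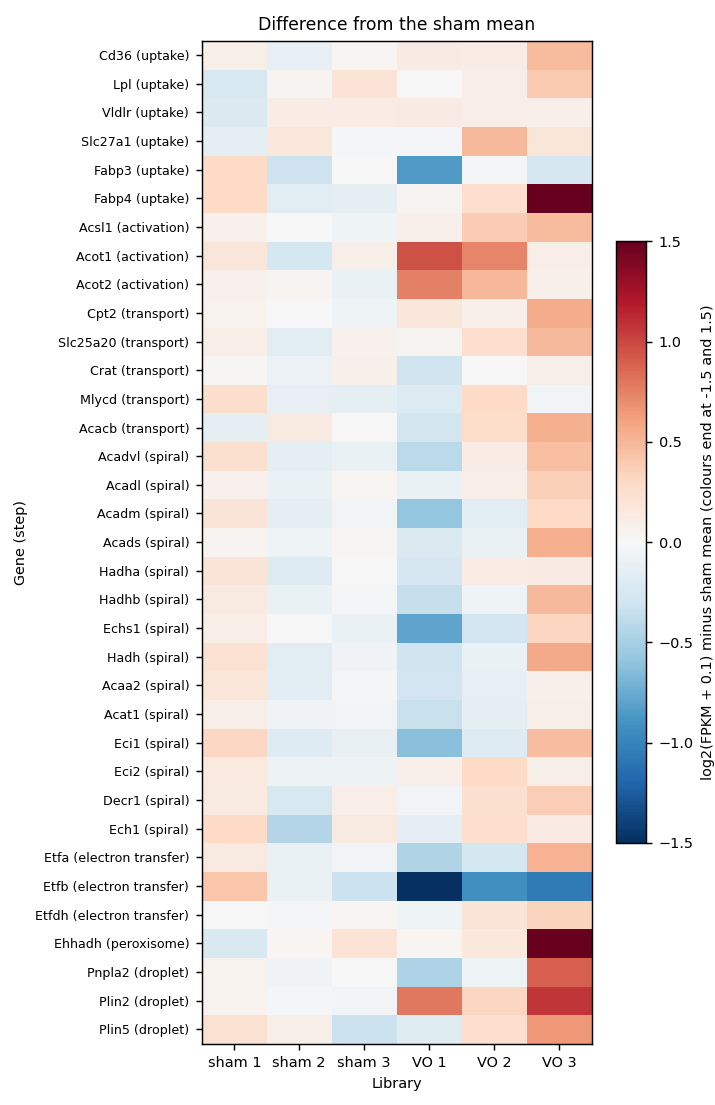
Distance of each gene from its sham mean in every library, on the log2(FPKM + 0.1) scale, with 1 row per gene and 1 column per library. Red is above and blue below the sham mean. The VO 1 column is mostly blue and the VO 3 column mostly red, with means over the 35 genes of -0.18 and 0.39, and Etfb is blue in all 3 VO columns.

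Many fatty acid genes are targets of the nuclear receptors PPARA and ESRRA, which bind copies of the letters AGGTCA. In RefSeq promoter windows of GRCm38.p6, from 250 bases before to 50 bases after a gene's start, 29 of the 35 genes had a window. The core motif AGGTCA, searched on both strands (TGACCT on the other), occurred in the windows of 7 of them, Acacb, Acadm, Acadvl, Cd36, Echs1, Plin2 and Plin5, that is in 8 of 34 windows, where 16.3% of all 32851 windows hold it. The direct repeat AGGTCANAGGTCA, which contains the core motif, was in none of them and in 0.0396% of all windows, and the ESRRA motif TNAAGGTCA, which contains it as well, was in none and in 1.28%. A match in letters is a description and no site of binding, and a window without a match says only that these letters are not in it. Of the 7 genes with the motif, Acadm (log2 fold change -0.15) and Echs1 (-0.25) lay below 0 and the rest above it. Acsl1, Acot2 and Cpt2, also higher in VO without overlap, were not among the 7. The stretches below are shown for Cd36 and Plin2, whose groups did not overlap and which hold the motif. Etfb, which had the log2 fold change farthest from 0 and holds none, is shown as well. Each runs 5′ to 3′ on the gene's strand and ends 10 bases before the RefSeq start, with the core motif in capitals, here read as TGACCT. They are chr5:17835907-17836146 (minus strand) for Cd36, where RefSeq places the start inside the annotated gene, chr4:86670070-86670309 (minus strand) for Plin2 and chr7:43443822-43444061 (plus strand) for Etfb. The motif begins 228 bases before the start in Cd36 and 218 bases before it in Plin2.
Cd36: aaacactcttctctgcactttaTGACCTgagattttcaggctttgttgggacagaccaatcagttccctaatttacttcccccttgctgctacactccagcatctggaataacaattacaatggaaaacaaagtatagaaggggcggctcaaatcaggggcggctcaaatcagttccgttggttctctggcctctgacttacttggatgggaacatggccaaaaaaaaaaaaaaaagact
Plin2: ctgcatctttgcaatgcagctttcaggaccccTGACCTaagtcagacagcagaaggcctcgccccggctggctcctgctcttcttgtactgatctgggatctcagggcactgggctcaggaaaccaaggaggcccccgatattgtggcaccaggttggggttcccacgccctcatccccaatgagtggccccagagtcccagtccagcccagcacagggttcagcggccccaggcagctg
Etfb: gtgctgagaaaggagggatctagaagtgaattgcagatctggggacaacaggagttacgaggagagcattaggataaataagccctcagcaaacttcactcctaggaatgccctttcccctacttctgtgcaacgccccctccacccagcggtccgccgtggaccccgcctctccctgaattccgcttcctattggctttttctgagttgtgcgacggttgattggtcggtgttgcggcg

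Uptake covers the lipase that frees fatty acids and the proteins that carry them in. Cd36 (ENSMUSG00000002944, chromosome 5, 17781690 to 17888801), the main membrane transporter of long-chain fatty acids, whose promoter stretch holds the core motif, was 222, 191 and 212 FPKM in sham 1 to 3 and 226, 225 and 288 in VO 1 to 3. All VO values lay above all sham values, yet VO 1 and VO 2 passed the highest sham library by little, and VO 3 stood above the rest. For Cd36 this gave a log2 fold change of 0.24 with all libraries (SE 0.14, limma adjusted p = 0.487) and 0.12 without VO 3. Lpl, the lipoprotein lipase that frees fatty acids at the capillary wall, had 155 ± 23.6 FPKM in sham against 174 ± 25.1 in VO (SD, n = 3), which lay within the spread of the libraries. Vldlr, the lipoprotein receptor, was 29.0 ± 3.65 against 30.8 ± 0.476 FPKM, and the transporter gene Slc27a1 was 18.0 ± 1.85 against 21 ± 3.88 FPKM (SD), again within the spread.

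The pair of binding proteins in the list lay on opposite sides of 0. Fabp3 (ENSMUSG00000028773, chromosome 4, 130308595 to 130315463), which carries fatty acids inside cardiomyocytes, was 968, 635 and 785 FPKM in sham and 434, 769 and 657 in VO. VO 1 was the lowest and sham 1 the highest library, and the other 4 values were mixed between the groups. Fabp3 thus had a log2 fold change of -0.38 (SE 0.26, limma adjusted p = 0.519), which was -0.14 without VO 1 and -0.0012 with quantile normalization. Of its exon bases 19.6% lie over genes of the opposite strand, and 21.7% of its 100-base stretches also occur elsewhere, most in the pseudogene Fabp3-ps1. Fabp4 (ENSMUSG00000062515), a binding protein of adipocytes that capillary endothelium and macrophages make as well, was 46.6, 34.0 and 34.5 FPKM in sham and 39.1, 45.4 and 139 in VO. VO 1 and VO 2 lay inside the sham range and only VO 3, the library with Ucp1, lay above it. The log2 fold change of 0.72 (SE 0.46, limma adjusted p = 0.497) was 0.15 without VO 3.

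Activation joins the fatty acid to CoA, and the thioesterases split that bond again. The median log2 fold change of its 3 genes was 0.44, and all 3 were above 0 with every scaling and with any library left out. Acsl1 (ENSMUSG00000018796, chromosome 8, 46471037 to 46536051), the main long-chain acyl-CoA synthetase of the heart, was 48.1, 46.2 and 43.8 FPKM in sham and 48.3, 59.8 and 64.1 in VO. The groups did not overlap, but VO 1 stood only just above sham 1. Acsl1 had a log2 fold change of 0.31 (SE 0.13, limma adjusted p = 0.414), 0.23 without VO 3 and 0.43 without VO 1.

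The thioesterases ran in another order of libraries. Acot2 (ENSMUSG00000021226, chromosome 12, 83987861 to 83993873), which acts on acyl-CoA in the mitochondrial matrix, was 11.6, 11.4 and 10.3 FPKM in sham and 18.8, 15.7 and 11.7 in VO. Here VO 1 and VO 2 were well above sham, and VO 3 sat at the edge of the sham range. Acot2 differed by 0.44 on the log2 scale (SE 0.18, limma adjusted p = 0.411) and 0.62 without VO 3. Acot1 (ENSMUSG00000072949, chromosome 12, 84009490 to 84018371), the cytosolic counterpart encoded next to it, was 2.66, 1.92 and 2.49 FPKM in sham and 4.64, 3.94 and 2.51 in VO. VO 3 fell between sham 3 and sham 1, so the groups overlapped, and the log2 fold change was 0.60 (SE 0.25, limma adjusted p = 0.414) and 0.85 without VO 3. Acot1 and Acot2 rested on 130 to 330 and 370 to 749 fragments per library. They share sequence, with 12.4% of the 100-base stretches of Acot1 and 17.1% of those of Acot2 found in other genes, most in each other, so their values are uncertain where a fragment could come from either. In these genes VO 3 lay furthest below the mean of VO 1 and VO 2, with log2 differences of -0.74 in Acot1 and -0.55 in Acot2.

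Transport moves the activated chain across the inner membrane. Cpt2 (ENSMUSG00000028607, chromosome 4, 107903981 to 107923610), the carnitine acyltransferase of the inner membrane, was 51.2, 49.5 and 47.1 FPKM in sham and 55.4, 51.9 and 72.3 in VO. The groups did not overlap, though VO 2 lay close to sham 1, and VO 3 was the highest. Cpt2 differed by 0.27 on the log2 scale (SE 0.14, limma adjusted p = 0.453) and 0.12 without VO 3. Slc25a20, the carnitine and acylcarnitine exchanger, had 15.5 ± 1.58 FPKM in sham against 18.6 ± 2.88 in VO (SD, n = 3), with VO 1 at 15.8 inside the sham range. Crat (ENSMUSG00000026853, chromosome 2, 30400471 to 30415813), the carnitine acetyltransferase and the highest gene of the step, was 66.7, 61.9 and 69.6 FPKM in sham and 53.7, 66.4 and 70.1 in VO. VO 1 lay below the sham range and VO 3 just above it, and the log2 fold change of -0.067 (SE 0.13, limma adjusted p = 0.823) was 0.049 without VO 1.

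Malonyl-CoA, which blocks entry at the outer membrane, is made by the product of Acacb and removed by that of Mlycd. Acacb had 18.4 ± 1.74 FPKM in sham against 21.3 ± 5.76 in VO (SD of 3 libraries each), a log2 fold change of 0.18 that was 0.40 without VO 1 and -0.00037 without VO 3. Mlycd had 17.4 ± 2.88 FPKM in sham against 17.6 ± 3.20 in VO (SD of 3 libraries each), with a log2 fold change of 0.020 (SE 0.17). Neither difference was larger than the spread between libraries.

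The spiral itself, with 14 genes, was the step with the median nearest to 0, at 0.037. Its genes lay between -0.25 and 0.19 on the log2 scale with standard errors of 0.12 to 0.28, 8 above 0 and 6 below, and the groups overlapped in all 14. The balance turned with single libraries and with scaling. Without VO 3, 10 of the 14 genes were lower in VO with a median of -0.18, and without VO 1, 12 were higher with a median of 0.19. With TPM 12 genes were higher and Acadm and Echs1 lower, and with quantile normalization 13 were higher and Echs1 lower. The mean over the 14 genes lay at -0.31 in VO 1, -0.0043 in VO 2 and 0.31 in VO 3, and the sham libraries lay at 0.17, -0.15 and -0.02.

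The acyl-CoA dehydrogenases open each turn, each for its own range of chain lengths. Acadl, for long chains, was 306, 272 and 298 FPKM in sham and 272, 313 and 375 in VO, a log2 fold change of 0.12 (SE 0.15) that was 0.0019 without VO 3. Acadm, for medium chains, was 114, 89.8 and 97.1 FPKM in sham and 66.6, 88.8 and 122 in VO, so that the lowest and the highest library were both VO. Acadm gave -0.15 (SE 0.23) with all libraries, -0.38 without VO 3 and 0.063 without VO 1. Acads, for short chains, stayed within 33.1 to 35.6 FPKM in sham and ran from 29.7 to 50.6 in VO. Acadvl, for very long chains, had 64.7 ± 9.86 FPKM in sham against 68.5 ± 19.7 in VO (SD of 3 libraries each). Of its exon bases 42.9% lie over Dvl2 on the opposite strand, and whether the counting used strand is not given in the sources used here.

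The hydratases and hydroxyacyl-CoA dehydrogenases follow. Echs1 (ENSMUSG00000025465), the short-chain enoyl-CoA hydratase, was 25.1, 23.4 and 22 FPKM in sham and 13.5, 19.3 and 29.3 in VO. VO 1 and VO 2 lay below the sham range and VO 3 above it. The value on the log2 scale was -0.25 (SE 0.26, limma adjusted p = 0.655), -0.54 without VO 3 and 0.019 without VO 1. For the subunits of the trifunctional protein the group means lay close together. Hadha had 60.2 ± 8.18 FPKM in sham against 60.1 ± 8.38 in VO, and Hadhb had 73.6 ± 6.40 and 76.8 ± 23.1 (SD, n = 3). The ratio of Hadhb to Hadha was 1.23 ± 0.0687 in sham against 1.27 ± 0.267 in VO (SD, two-sided exact permutation test, p = 1, n = 3 each). Of the 100-base stretches of Hadhb 14.8% occur in other genes, most in Gm13910. Hadh, the short-chain hydroxyacyl-CoA dehydrogenase, had 40.1 ± 5.79 FPKM in sham against 42.9 ± 14.3 in VO (SD), with VO 3 at 59.1.

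The thiolases close each turn and release acetyl-CoA. Acaa2 (ENSMUSG00000036880), the highest gene of the spiral, was 388, 307 and 338 FPKM in sham and 280, 315 and 361 in VO. Only VO 1 fell below the sham range, and the log2 fold change was -0.11 (SE 0.16, limma adjusted p = 0.741), -0.023 without VO 1 and 0.15 with quantile normalization. Acat1, which splits acetoacetyl-CoA, had 93.2 ± 4.79 FPKM in sham against 85.9 ± 12.7 in VO (SD of 3 libraries each). Acat1 differed by -0.13 on the log2 scale (SE 0.14) and by 0.012 with TPM.

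Unsaturated chains need isomerases and a reductase before the spiral can take them. Eci1, the main mitochondrial enoyl-CoA isomerase, was 91.0, 64.1 and 67.9 FPKM in sham and 47.6, 64.0 and 102 in VO, with VO 1 lowest and VO 3 highest of all 6. Eci2, its relative found in peroxisomes as well, had 17.3 ± 1.62 and 19.3 ± 1.74 FPKM. Decr1, the dienoyl-CoA reductase, had 46.3 ± 6.26 and 52.9 ± 7.53, and Ech1, the dienoyl-CoA isomerase, 155 ± 38.7 and 162 ± 21.6 FPKM (sham and VO, SD, n = 3). Of these 4 genes Decr1 had the largest log2 fold change, 0.19 (SE 0.16), and its groups overlapped.

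Electron transfer held the log2 fold change farthest from 0 among the 35 genes. The electron transfer flavoprotein is made of an alpha subunit, from Etfa, and a beta subunit, from Etfb, and hands electrons from the dehydrogenases to the ubiquinone oxidoreductase made from Etfdh. Etfb (ENSMUSG00000004610, chromosome 7, 43444083 to 43457800) was 42.1, 29.3 and 25.2 FPKM in sham and 7.20, 16.5 and 15 in VO. Every VO library lay below every sham library, with means of 32.2 ± 8.83 and 12.9 ± 5.02 FPKM (SD, n = 3). The log2 fold change was -1.37 (SE 0.34, limma adjusted p = 0.356), and it ran from -1.59 to -0.99 over the alternatives, -0.99 without VO 1 and -1.52 without VO 3. The direction held with each scaling and with any library left out, while the adjusted p from limma stayed at 0.243 or above.

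Its partners differed less between the groups in log2 fold change. Etfa (ENSMUSG00000032314, chromosome 9, 55454508 to 55512243) was 160, 136 and 142 FPKM in sham and 107, 122 and 209 in VO, where VO 1 and VO 2 lay below the sham range and VO 3 above it. The log2 fold change was -0.064 (SE 0.25, limma adjusted p = 0.923), -0.36 without VO 3 and 0.13 without VO 1. Etfdh had 34.6 ± 0.717 FPKM in sham against 38.7 ± 5.31 in VO (SD), that is 0.15 on the log2 scale (SE 0.12), with VO 1 at 33.0 below the sham range. The ratio of Etfb to Etfa within a library was 0.263, 0.215 and 0.177 in sham and 0.0675, 0.136 and 0.0718 in VO. The ratios did not overlap, at 0.219 ± 0.0431 and 0.0918 ± 0.0383 (SD, n = 3, two-sided exact permutation test, p = 0.1). This p is the smallest value 3 libraries against 3 can give, so this test could not pass 0.05. The ratio of Etfb to Etfdh was 0.933 ± 0.261 in sham against 0.327 ± 0.101 in VO (SD, exact permutation p = 0.1). Of the 7 ratios between members computed in this way, 4 reached the same p, which became 0.175 after Benjamini-Hochberg adjustment of the exact permutation p over the 7.

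Etfb also carried the largest annotation overlap of the 35 genes. In GENCODE M21 on GRCm38, 678 of its 1164 exon bases (58.2%) are shared on the same strand with other genes, mainly the readthrough gene Gm45233, which was listed at 0 FPKM, and 486 bases are its own. Etfb rested on 152 to 763 fragments per library. The deposited values do not show how fragments on the shared bases were handled, and the part of this overlap in the difference between groups was not tested. Etfb was the only member with over 10 percent of its exon bases shared with another gene on the same strand.

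**Figure D3:**
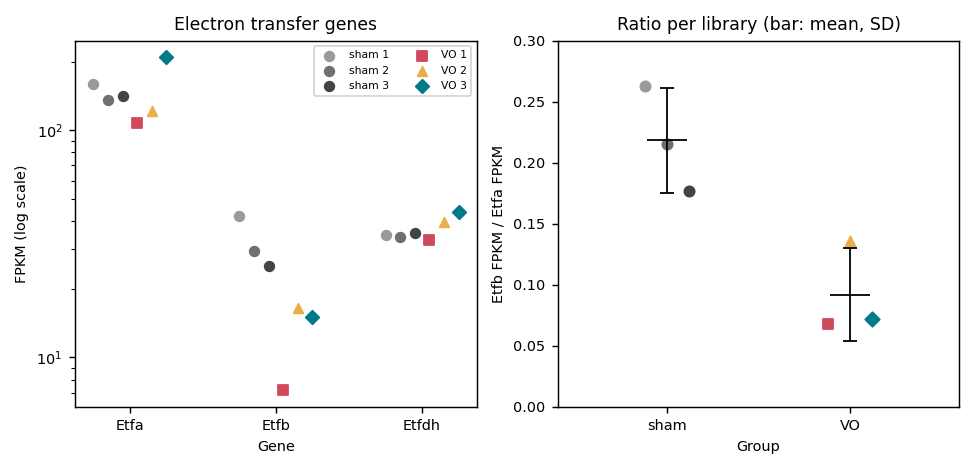
Left, FPKM of Etfa, Etfb and Etfdh in each library on a log axis, and right, the ratio of Etfb to Etfa in each library with the group mean and SD as bars, from an axis that starts at 0. All 3 VO ratios, 0.0675 to 0.136, lie below the sham ratios of 0.177 to 0.263.

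The peroxisome was represented by Ehhadh (ENSMUSG00000022853, chromosome 16, 21761287 to 21787807), the bifunctional hydratase and dehydrogenase of the peroxisomal pathway. It was 1.6, 1.93 and 2.18 FPKM in sham and 1.92, 2.12 and 6.65 in VO. VO 1 and VO 2 lay inside the sham range, and only VO 3 was above it. The log2 fold change of 0.65 (SE 0.45, limma adjusted p = 0.522) was 0.093 without VO 3. At 74 to 326 fragments per library it was among the most thinly read of the 35 genes.

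At the lipid droplet, Plin2 (ENSMUSG00000028494, chromosome 4, 86648386 to 86670060), the perilipin that coats droplets in most cells and has the core motif in its promoter stretch, was 9.88, 9.46 and 9.32 FPKM in sham and 16.7, 11.9 and 20.1 in VO. All VO libraries lay above all sham libraries, whose values spread over less than 1 FPKM. The means were 9.56 ± 0.293 and 16.2 ± 4.12 FPKM (SD, n = 3), and the log2 fold change was 0.73 (SE 0.19, limma adjusted p = 0.371). Plin2 was higher by 0.56 without VO 3 and by 0.69 without VO 1, and by 0.56 to 0.93 over all alternatives, with an adjusted p of 0.221 or above from limma. The highest Plin2 values, 20.1 in VO 3 and 16.7 in VO 1, stood in the libraries with the highest white adipocyte sum (357 FPKM) and the highest macrophage sum (230 FPKM), and the lowest VO value, 11.9, in VO 2, where these sums were 0 and 93.2 FPKM. The part of these cells in the difference of Plin2 was not tested.

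Pnpla2 (ENSMUSG00000025509, chromosome 7, 141455198 to 141460743), the adipose triglyceride lipase, was 94.2, 87.6 and 91.0 FPKM in sham and 66.1, 87.2 and 170 in VO. VO 3 was high and VO 1 low, and VO 2 lay just under the sham range. On the log2 scale Pnpla2 differed by 0.13 (SE 0.32, limma adjusted p = 0.869), -0.26 without VO 3 and 0.42 without VO 1. Plin5, a perilipin of oxidative muscle that ties droplets to mitochondria, had 7.38 ± 1.41 FPKM in sham against 8.88 ± 2.56 in VO (SD of 3 libraries each), with a log2 fold change of 0.24 that was 0.035 without VO 3. The ratio of Plin2 to Pnpla2 was 0.105 ± 0.00282 in sham against 0.169 ± 0.0723 in VO without overlap (SD, n = 3, exact permutation p = 0.1). The ratio of Plin2 to Plin5 overlapped between the groups, with 1.32 ± 0.240 in sham against 1.91 ± 0.634 in VO (SD, n = 3, exact permutation p = 0.2).

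**Figure D4:**
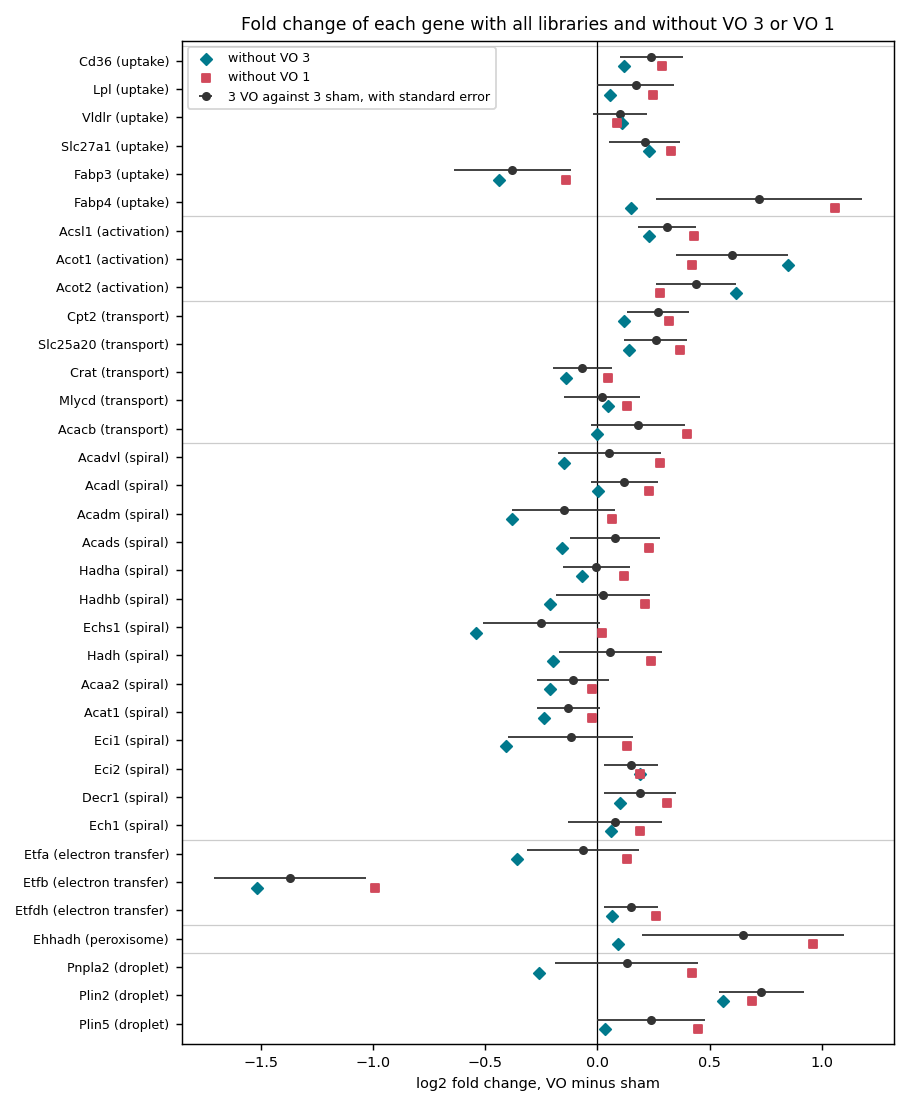
Log2 fold change of VO against sham for each gene, with its standard error (black), and the same value without VO 3 (blue diamonds) and without VO 1 (red squares). Of the 14 spiral genes, 10 lie left of 0 without VO 3 and 2 without VO 1. Etfb stays below -0.9 and Plin2 above 0.5 in all 3 fits.

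Some genes stood high in VO 3 alone. VO 3 lay above the mean of VO 1 and VO 2 by 3.29-fold in Fabp4, 3.19-fold in Ehhadh and 2.24-fold in Pnpla2. Cidea, a droplet protein of brown fat, was 65.7 FPKM in VO 3 and 3.50 to 7.69 elsewhere, beside Adipoq at 48.7 against at most 0.489. Among the spiral and electron transfer genes the same ratio was largest in Eci1 and Etfa at 1.84 each, and Echs1 at 1.81. Fabp4, Ehhadh and Pnpla2 had arithmetic means of 42.2, 2.02 and 76.6 FPKM over VO 1 and VO 2, against 38.3, 1.90 and 90.9 in sham. How much of the VO 3 values came from fat tissue was not tested.

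**Figure D5:**
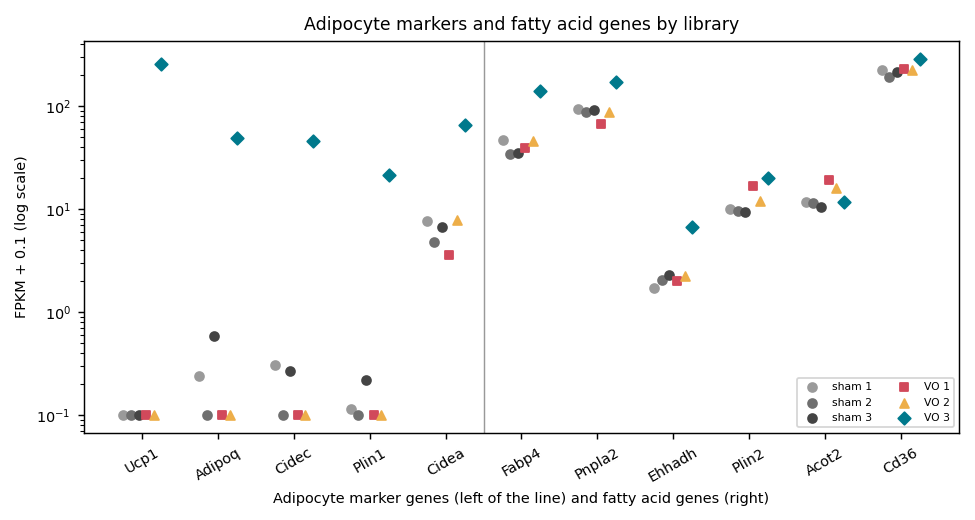
FPKM + 0.1 on a log axis for 5 adipocyte markers (left of the line) and 6 of the fatty acid genes (right), 1 point per library. Ucp1 is at 0, drawn at 0.1, in all libraries but VO 3. Fabp4, Pnpla2, Ehhadh, Plin2 and Cd36 are highest in VO 3 too, whereas Acot2 is lowest of the VO libraries there. Plin2, Cd36 and Acot2 lie above sham in all 3 VO libraries.

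Around these 35 genes, a list of 99 other genes of fatty acid handling was set up, of which 98 had a row and 91 were tested. Of these 0 passed limma's adjusted threshold. At an unadjusted p under 0.05, 8 were lower (background 8.08%) and 8 were higher (background 3.89%), and the median log2 fold change was -0.00072. Without VO 3 the counts were 5 lower (background 7.55%) and 9 higher (background 3.94%) with a median of -0.10, and without VO 1 they were 1 lower (background 4.91%) and 10 higher (background 2.51%) with a median of 0.10. With all libraries the higher genes were Angptl4, Cat, Cpt1a, Lipe, Pdk4, Slc25a34, Slc25a42 and Ucp3, and the lower ones included Acot7, Esrra, Fitm1, Flad1, Klf15, Ppard and Them4. Cpt1a, the carnitine acyltransferase that precedes Cpt2 at the outer membrane, was 16.4, 16.5 and 15 FPKM in sham and 35.1, 27.1 and 22.7 in VO, without overlap. Its log2 fold change of 0.80 (SE 0.16, limma adjusted p = 0.325) stood beside 0.27 for Cpt2, and it ran in the order of libraries seen in Acot2, with VO 1 highest and VO 3 lowest among the VO libraries. Ucp3, a mitochondrial carrier of muscle, was 4.02, 1.5 and 1.82 FPKM in sham and 8.47, 10.1 and 7.16 in VO, a log2 fold change of 1.88 (SE 0.35, limma adjusted p = 0.283). Slc25a34, another mitochondrial carrier gene, lay at 3.39 to 4.83 FPKM in sham and 7.35 to 7.64 in VO, and Pdk4, the kinase that holds back glucose oxidation, at 77.3 to 140 and 147 to 233 FPKM.

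On the lower side, Klf15, a regulator of fuel use in muscle, was 33.1 to 34.1 FPKM in sham and 10.4, 24.5 and 23.3 in VO, a log2 fold change of -0.89 (SE 0.31, limma adjusted p = 0.406) that was -0.49 without VO 1. Flad1, which makes the flavin cofactor FAD used by the dehydrogenases and by the electron transfer flavoprotein, had 8.95 ± 1.06 FPKM in sham against 6.78 ± 0.948 in VO (SD, n = 3). Its groups did not overlap, and the log2 fold change was -0.40 (SE 0.14, limma adjusted p = 0.407). Ppara, the gene of the receptor that many fatty acid genes answer to, had 5.05 ± 0.512 FPKM in sham against 4.89 ± 1.12 in VO (SD, n = 3), which lay within the spread of the libraries.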

How the data were processed

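RNA-seq of 3 sham and 3 VO right atria at P21 was analysed. The authors aligned reads to GRCm38 with HISAT2 2.0.5 and counted them per gene with featureCounts 1.5.0-p3, per the submitters' processing notes, and deposited FPKM values. Strand and the handling of ambiguous fragments are not given in the sources used here. FPKM times gene length gave whole fragments for 100% of values above 0 (tolerance 0.01), 15963082 to 17237903 per library, and 1 incomplete line was left out. The FPKM were rescaled by a median of ratios, whose factor was 1 in every library, so the deposited values already lay on that scale. They were transformed as log2(FPKM + 0.1), on which scale fold changes of low genes are understated. The 12627 genes with a mean of at least 1 FPKM were fitted with limma 3.58.1 (eBayes with trend, R 4.3.3), VO against sham, two-sided, and p-values were adjusted over all of them (Benjamini-Hochberg). The script was tested on simulated data. Genes were named in full if their unadjusted p was under 0.05, their groups did not overlap, or their level was the highest of the step. Of the other pathway genes the rule took the 3 with the smallest p in each direction without overlap, and Cpt1a, Cpt1b, Ppara and Pdk4, and some results that the rule covers are not reported here. The members, lists and rule were chosen with earlier results of these data known. Alternatives were other pseudocounts and filters, TPM, quantile normalization, voom on the recovered fragments, a replicate block and each library left out. Exon overlaps were taken from GENCODE M21, whose coordinates were identical for 33 of the 35 members, all but Acaa2 and Eci1, and promoters from RefSeq. The authors' own test was not repeated.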

Additional observations from a re-analysis of the deposited data

How the results depend on the processing

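Under the 15 alternatives no adjusted p of a named gene fell under 0.05 (lowest 0.141 over all named genes and 0.221 over the 35 members, from limma or voom), and 18 of the 35 members kept their sign throughout. TPM gave 10 higher members at an unadjusted p under 0.05 (8.59% of all tested genes), 14 higher members without overlap (16.6%), and 15 higher and 2 lower other pathway genes (8.59% and 3.85%). Quantile normalization gave 9 higher members (4.05%) and 12 without overlap (8.92%). Log2 fold changes turned positive with TPM and quantile normalization in Crat (0.073 and 0.093), Hadha (0.13 and 0.16), Acaa2 (0.027 and 0.15), Acat1 (0.012 and 0.063), Eci1 (0.02 and 0.037) and Etfa (0.076 and 0.21), in Acadm with quantile normalization (0.047), in Ppara with TPM (0.069) and in Hadha with voom (0.024). TPM divides each library by its FPKM sum, which was 361947 to 414851 in sham and 331122 to 369983 in VO. It thereby moves nearly all genes by a similar amount, and the median of all tested genes went from -0.01 to 0.13. The sign turns with TPM are thus a shift of scale common to the genes. The cause of the turns with quantile normalization and voom was not tested. With 1 library left out at a time, counts ran from 1 to 5 for higher and 1 to 3 for lower members at an unadjusted p under 0.05, from 5 to 12 and 1 to 8 for those without overlap, and from 1 to 7 for lower other pathway genes. Higher members numbered 1 without each of sham 1, sham 2, sham 3 and VO 2, where 2.23%, 2.68%, 2.48% and 6.21% of all genes were so called. Without sham 1, 8 higher members did not overlap (12.2%), and without sham 2, 2 lower ones (18.3%). Lower other pathway genes numbered 1, 3 and 5 without sham 1, sham 2 and sham 3 (4.55%, 6.09% and 6.66%). Log2 fold changes then ran from -0.012 to 0.15 in Vldlr, -0.14 to 0.049 in Crat, -0.12 to 0.15 in Mlycd, -0.00037 to 0.40 in Acacb, -0.15 to 0.28 in Acadvl, -0.38 to 0.063 in Acadm, -0.16 to 0.23 in Acads, -0.10 to 0.12 in Hadha, -0.21 to 0.21 in Hadhb, -0.54 to 0.019 in Echs1, -0.20 to 0.24 in Hadh, -0.41 to 0.13 in Eci1, -0.14 to 0.23 in Ech1, -0.36 to 0.13 in Etfa, -0.26 to 0.42 in Pnpla2 and -0.22 to 0.12 in Ppara.

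The labels do not say whether the replicate numbers pair the libraries. Deviations from the group mean in same-numbered libraries correlated across genes at -0.108, 0.0112 and -0.0292. With 3 libraries per group these values cannot settle whether the libraries were paired. With the replicate block, limma gave 2 higher members (2.57% of all genes) and 1 lower (4.82%) at an unadjusted p under 0.05, and 1 lower other pathway gene in place of 8. Depth limited Ehhadh and Acot1 most, and the other members had at least 152 fragments per library.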
